A study of Homo sapiens with 4 samples.

Results

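The liver genes AFP, GPC3, H19, IGF2, IGF2BP1, IGF2BP2, IGF2BP3, LIN28B, DLK1 and PEG10 are known for their activity in the fetal liver, placenta or other fetal tissue, and many of them are read at raised levels in liver tumours. These 10 oncofetal genes were chosen by name, and all were found among the 58174 genes of the expression table. The human cell lines compared were LM3, labelled hepatocellular carcinoma, and RBE, labelled intrahepatic cholangiocarcinoma, a cancer of bile duct type. Each was lipofected either with si-FENDRR, an siRNA aimed at the noncoding transcript FENDRR, or with the control si-NC, and harvested 48 h later. There was 1 library for each line and transfection, 4 in all, and the labels name no separate cultures, so p-values measure only the spread between these libraries. FENDRR was listed at 0 in all 4 libraries, so the knockdown could not be checked and transfections are compared by label.

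AFP encodes alpha-fetoprotein, the main plasma protein of the fetus and a blood marker of hepatocellular carcinoma. GPC3 encodes a cell-surface heparan sulfate proteoglycan used to stain the same tumour. H19, IGF2, DLK1 and PEG10 are imprinted, so that normally the copy from only the mother or only the father is read. LIN28B blocks the maturation of let-7 microRNAs, and the IGF2BP proteins bind mRNAs such as those of IGF2 and MYC and stabilise many of them.

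The let-7 family is shown because LIN28B and the IGF2BP genes are both known let-7 targets. Pairing runs through the microRNA's seed, bases 2 to 8, in capitals. All 9 mature let-7 and miR-98 names in RefSeq (GRCh38.p14) share it, as in these examples.
let-7a-5p: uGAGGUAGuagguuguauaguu
let-7d-5p: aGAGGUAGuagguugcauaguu
miR-98-5p: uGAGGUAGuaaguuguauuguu
The letters that pair with the seed, CTACCTC on the sense strand, were searched in the 3′ untranslated region of the transcript with the longest coding sequence of each gene (GENCODE release 29, GRCh38). They were present in 4 of 9 coding members and in 8.32% of 18770 coding genes. The family was chosen for these 4 genes, so the count was largely set in advance and is a description. The first match in each of these members follows, with the match in capitals.
IGF2BP1 (chr17:49051061-49051090, plus strand): tgtgtgcgaagtaaaCTACCTCaaggtatg
IGF2BP2 (chr3:185644213-185644242, minus strand): aacacacagaagaagCTACCTCaggtgttt
IGF2BP3 (chr7:23311788-23311817, minus strand): tgcatttttactcaaCTACCTCaggtattc
LIN28B (chr6:105078812-105078841, plus strand): acccggttgcaaagtCTACCTCatgcaagt
IGF2BP1 held 4 matches in 6206 bases, and 0.0533% of the genes held at least as many. The other 3 members with a match held 1 each, in 1696 bases for LIN28B. The searched region was only 29 bases in AFP and 16 in PEG10, both without a match. The count depends on the transcript: by the longest coding transcript, a rule added after the first counts were seen, LIN28B held 4 in 4549 bases, and 9.45% of 19007 genes held a match. HMGA2, a well-known let-7 target, held 0 under both rules, so a gene without a match here may carry one in another transcript. Longer regions hold more matches by length, and mature microRNAs were not measured.

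Levels are in FPKM, fragments per kilobase of transcript and per 1e6 mapped fragments, a unit scaled for transcript length. Pairs of values below give the si-FENDRR library first. The 10 genes fell into 3 sets. AFP, H19 and IGF2BP1 were at 1 FPKM or more in both LM3 libraries and under 1 in both RBE libraries, a pattern of 8.49% of the 15930 genes that reached 1 in any library. IGF2BP2, IGF2BP3 and PEG10 reached 1 in all 4 libraries, as 71.9% of those genes did. GPC3, IGF2, DLK1 and LIN28B were under 1 everywhere. The converse pattern, RBE without LM3, was found in 0 members and 7.88% of the genes, so 16.4% had one pattern or the other.

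**Figure D1:**
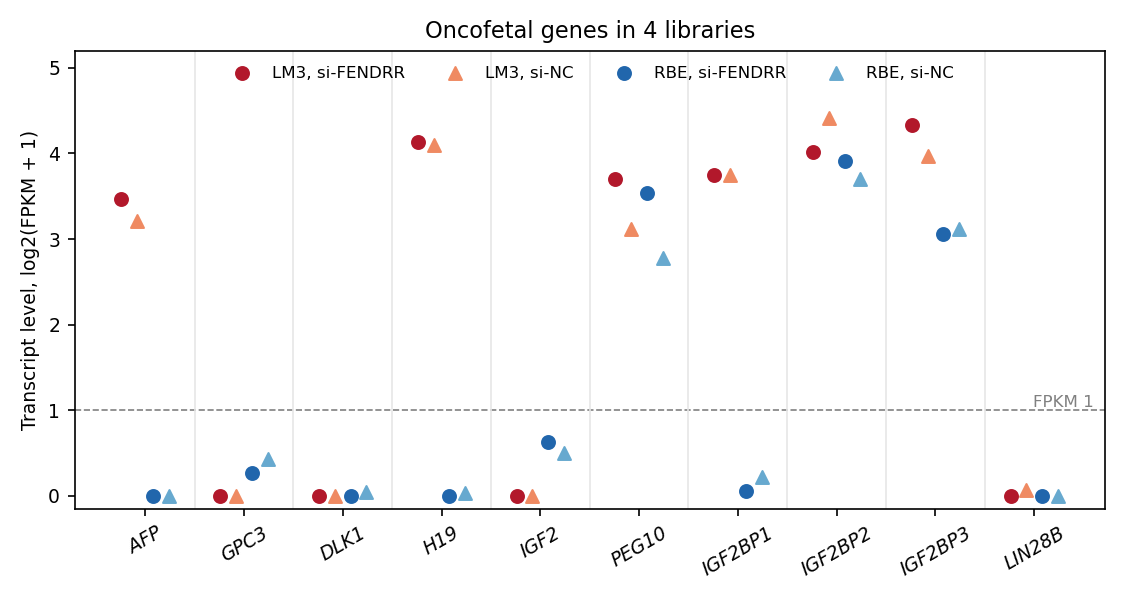
Level of each oncofetal gene, as log2(FPKM + 1) on the vertical axis; each point is 1 library, circles are si-FENDRR, triangles si-NC, red shades LM3 and blue shades RBE, and the dashed line marks FPKM 1. AFP, H19 and IGF2BP1 lie above the line in LM3 alone, IGF2BP2, IGF2BP3 and PEG10 in all 4 libraries, and the other 4 genes in none.

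The lines were compared with limma on log2(FPKM + 1) over the 15930 genes, with terms for line and transfection and 1 residual degree of freedom. The p-values therefore rest on how alike the line difference was under both siRNAs. limma also drew each gene's spread toward that of genes at a similar level. An SE is thus not the gene's own spread alone. The 6 members at 1 FPKM or more in any library were tested and 4 were called at an adjusted p of 0.05, all higher in LM3. Of all tested genes 58.7% were called, 32.3% toward LM3 and 26.4% toward RBE. The median LM3 minus RBE difference was 2.20 over the tested members and 0.09 over all tested genes. AFP, H19 and IGF2BP1 passed the filter through LM3 alone and so had to differ, which makes this count and the members' median descriptions. GPC3, IGF2, DLK1 and LIN28B, at -0.35, -0.57, -0.03 and 0.04, were under the filter and are not in that median. The same holds for the calls of genes named below that passed through a single line. With every gene above 0 in any library kept, 34399 genes were tested, 24.3% were called, and so were 6 members. The added ones, GPC3 and IGF2, passed through RBE alone, at levels under 1 FPKM, so their calls carry no further weight.

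**Figure D2:**
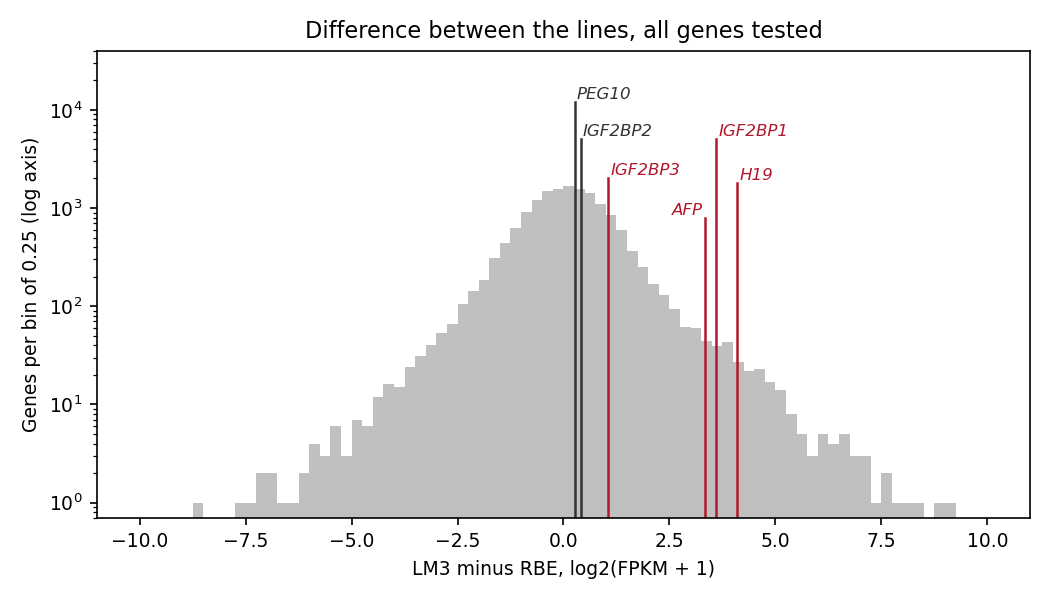
Number of genes (log axis) by line difference, LM3 minus RBE in log2(FPKM + 1), over the 15930 genes tested in bins of 0.25, with vertical lines at the tested members, red where called and black where not; line heights carry no value. AFP, IGF2BP1 and H19 lie between 3.34 and 4.10, IGF2BP3 at 1.06, IGF2BP2 at 0.41 and PEG10 at 0.26.

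AFP (ENSG00000081051, chromosome 4, 73431138 to 73456174, plus strand of hg38) was at 10.1 FPKM with si-FENDRR and 8.25 with si-NC in the LM3 libraries, and was listed at 0 in both RBE libraries. The groups did not overlap, with a difference of 3.34 ± 0.15 on the log2 scale (limma SE, n = 2 libraries per line, adjusted p = 0.00107). Within LM3, AFP stood at percentiles 61.3 and 56.4 of the tested genes, near the middle. In these bulk values fewer expressing cells and less RNA per cell cannot be told apart.

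The AFP promoter is shown because AFP was read in LM3 alone. The stretch covers 250 bases before to 50 after the RefSeq start (GRCh38.p14, chr4:73435971-73436270, plus strand). Capitals mark TATAAA, the TATA box, on the sense strand.
AFP: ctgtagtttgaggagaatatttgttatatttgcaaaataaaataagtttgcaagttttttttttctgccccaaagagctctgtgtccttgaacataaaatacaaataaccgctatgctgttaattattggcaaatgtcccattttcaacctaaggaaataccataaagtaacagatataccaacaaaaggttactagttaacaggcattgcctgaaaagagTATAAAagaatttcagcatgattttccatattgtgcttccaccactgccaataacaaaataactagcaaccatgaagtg
TATAAA begins 29 bases before the start. Of 35116 promoters of this length, 7.33% hold it on the sense strand and 11.5% on either strand. It was picked from 10 motifs after the members' promoters had been seen. Matches of the others are not given here. A match is not a measured binding site.

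Of 17 genes of the albumin cluster and its known regulators, 15 were tested and 12 called, beside 58.7% of all tested genes. The calls were 5 higher in LM3 and 7 higher in RBE (median LM3 minus RBE -0.18). ALB, the adult counterpart of AFP in the same cluster, was at 35.7 and 33.3 FPKM in LM3 against 0.251 and 0.27 FPKM in RBE. ALB thus lay above AFP in both LM3 libraries. CEBPA, a hepatocyte factor, was at 81.8 and 93.1 FPKM in LM3 against 2.89 and 2.69 FPKM in RBE (4.54 ± 0.13, limma adjusted p = 0.00065). NR5A2, a nuclear receptor that can activate AFP, had the reverse order, 0.177 and 0.165 FPKM in LM3 against 11.7 and 7.78 FPKM in RBE. ZHX2, a postnatal repressor of AFP that is named after its values were seen, was at 2.39 and 2.48 FPKM in LM3 against 6.77 and 6.94 FPKM in RBE. ZBTB20 of the same list leaned the other way, at 2.24 and 0.894 FPKM in LM3 against 0.589 and 0.611 FPKM in RBE. ZHX3 was at 2.95 and 4.64 FPKM in LM3 against 4.96 and 3.78 FPKM in RBE. Neither ZBTB20 nor ZHX3 was called (limma adjusted p = 0.0961 and 0.566), and both are named after their values were seen.

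GPC3 (ENSG00000147257, chromosome X, 133535745 to 133985895, minus strand of hg38) did not share the pattern of AFP. It was listed at 0 in both LM3 libraries and stood at 0.206 FPKM with si-FENDRR and 0.352 with si-NC in RBE. These levels are under the filter.

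Of 22 other glypicans, syndecans and enzymes of heparan sulfate, 19 were tested and 13 called, beside 58.7% of all tested genes. The calls were 3 higher in LM3 and 10 higher in RBE (median LM3 minus RBE -0.50). GPC4, a related glypican, had a listed 0 in both libraries of LM3 against 3.1 and 3.8 FPKM in RBE. SDC2, a syndecan, was at 0.0546 and 0.0576 FPKM in LM3 against 10.2 and 11.1 FPKM in RBE (-3.46 ± 0.13, limma adjusted p = 0.000872). GPC4 and SDC2 passed the filter through RBE alone, so their calls are descriptions. HS6ST2, which adds sulfate groups to the chains, had a listed 0 in both libraries of LM3 against 4.24 and 4.13 FPKM in RBE. SULF2, which removes them, was at 3.66 and 4.19 FPKM in LM3 against 16.9 and 17.9 FPKM in RBE. All of these named genes were higher in RBE. HS6ST2 (132626016 to 132961395) and GPC4 (133300103 to 133415490) lie close to GPC3 on chromosome X. Each of them, like GPC3, was listed at 0 in both LM3 libraries, and whether these zeros are separate was not tested.

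DLK1 (ENSG00000185559, chromosome 14, 100725705 to 100738224, plus strand of hg38), a Notch-related membrane protein of hepatoblasts, was listed at 0 in 3 libraries and at 0.036 FPKM in RBE with si-NC. MEG3, the noncoding gene imprinted with it, was listed at 0 in all 4.

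H19 (ENSG00000130600, chromosome 11, 1995163 to 2001470, minus strand of hg38), a noncoding RNA of the maternal copy, was at 16.6 FPKM with si-FENDRR and 16.1 with si-NC in LM3. In RBE it was at a listed 0 and at 0.0195. The lines were far apart and the LM3 libraries close together (4.10 ± 0.13, limma SE, n = 2 libraries per line, adjusted p = 0.000697). H19 shares its exon with MIR675, the microRNA cut from it. MIR675 was at 0.0054 and 0.124 FPKM in LM3 against a listed 0 in both libraries of RBE. These levels are under the filter, and the split of reads with H19 is uncertain, so no line difference of the microRNA is read from them.

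IGF2 (ENSG00000167244, chromosome 11, 2129112 to 2141238, minus strand of hg38), the fetal growth factor read from the paternal copy beside H19, was listed at 0 in both LM3 libraries and was at 0.552 FPKM with si-FENDRR and 0.42 with si-NC in RBE. H19 and IGF2 were thus listed in opposite lines, IGF2 at levels under the filter. IGF2 shares exons with INS-IGF2 and AC132217.1, which leaves its reads uncertain, and INS-IGF2 was listed at 0 throughout.

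The promoters of H19, read in LM3 alone, and IGF2BP3, read in both lines, are set side by side with CG dinucleotides, the sites of DNA methylation, in capitals (same window and build).
H19 (chr11:2001217-2001516, minus strand): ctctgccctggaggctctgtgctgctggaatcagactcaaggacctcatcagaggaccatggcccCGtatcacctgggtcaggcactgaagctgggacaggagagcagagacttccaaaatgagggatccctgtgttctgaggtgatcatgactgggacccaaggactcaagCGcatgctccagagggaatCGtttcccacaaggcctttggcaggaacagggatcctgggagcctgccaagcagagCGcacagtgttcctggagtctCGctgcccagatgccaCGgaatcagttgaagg
IGF2BP3 (chr7:23470442-23470741, minus strand): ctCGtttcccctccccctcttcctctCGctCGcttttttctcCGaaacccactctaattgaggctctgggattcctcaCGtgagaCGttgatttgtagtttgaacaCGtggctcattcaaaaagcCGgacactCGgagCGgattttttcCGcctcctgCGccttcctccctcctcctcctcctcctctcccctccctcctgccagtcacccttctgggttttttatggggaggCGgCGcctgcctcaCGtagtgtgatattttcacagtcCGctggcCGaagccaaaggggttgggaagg
H19 had 6 CG dinucleotides and IGF2BP3 17, beside a median of 14 over all promoters. AFP had 1. The 2 promoters of IGF2BP2 had 38 and 3, and those of LIN28B 37 and 8. IGF2BP2 was read in both lines and LIN28B was under 1 FPKM in both. Which promoter was in use was not measured. Promoters of 5 members were matched in RefSeq, and methylation was not measured.

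Of 22 imprinted genes, 11 were tested and 7 called, beside 58.7% of all tested genes. The calls were 5 higher in LM3 and 2 higher in RBE (median LM3 minus RBE -0.01). CDKN1C, a cell cycle inhibitor of the H19 region, was at 4.62 and 4.72 FPKM in LM3 against 0.124 and 0.0448 FPKM in RBE (2.39 ± 0.14, limma adjusted p = 0.00163). PHLDA2, a placental growth restrainer of that region, was at 209 and 219 FPKM in LM3 against 112 and 90.4 FPKM in RBE, and SLC22A18, a transporter beside it, at 45.6 and 50.3 FPKM in LM3 against 21.5 and 21.8 FPKM in RBE. NDN, a growth suppressor of the Prader-Willi region, had the reverse order, a listed 0 in both libraries of LM3 against 23.2 and 26.7 FPKM in RBE (-4.70 ± 0.13, limma adjusted p = 0.00065). CDKN1C passed the filter through LM3 alone and NDN through RBE alone, so their calls are descriptions.

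IGF1R, the receptor that carries the signal of IGF2, was at 4.91 and 5.84 FPKM in LM3 against 3.72 and 3.66 FPKM in RBE, and IGF2R, which clears IGF2, at 26.2 and 26.7 FPKM in LM3 against 20.3 and 23.4 FPKM in RBE. Neither was called (limma adjusted p = 0.0566 and 0.125), and both are named for their roles after their values were seen. Of 18 genes of the IGF axis, 10 were tested and 7 called, beside 58.7% of all tested genes. The calls were 2 higher in LM3 and 5 higher in RBE (median LM3 minus RBE -0.14). IGFBP2, a carrier that binds IGF2, was at 2.23 and 2.02 FPKM in LM3 against 161 and 160 FPKM in RBE (-5.69 ± 0.11, limma adjusted p = 0.000584). IGFBP6, a carrier that prefers IGF2, was at 22.9 and 23.2 FPKM in LM3 against 69.2 and 66.6 FPKM in RBE. IRS2, an adaptor of the receptors, was at 0.653 and 0.865 FPKM in LM3 against 14.3 and 12.4 FPKM in RBE, and the insulin receptor INSR at 4.6 and 4.84 FPKM in LM3 against 1.28 and 1.51 FPKM in RBE.

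PEG10 (ENSG00000242265, chromosome 7, 94656325 to 94669695, plus strand of hg38), a gag-like gene of retrotransposon origin needed by the placenta, was at 12 FPKM with si-FENDRR and 7.68 with si-NC in LM3. The RBE libraries were at 10.6 with si-FENDRR and 5.84 with si-NC. Both lines overlapped, and the difference of 0.26 ± 0.13 did not pass (limma adjusted p = 0.154). Both si-FENDRR values lay above both si-NC values. Of 14 genes of related retrotransposon descent, 9 were tested and 6 called, beside 58.7% of all tested genes. The calls were 2 higher in LM3 and 4 higher in RBE (median LM3 minus RBE -0.43). LDOC1 had a listed 0 in both libraries of LM3 against 39.4 and 37.5 FPKM in RBE. RTL8B was at 0.0461 and 0.0376 FPKM in LM3 against 18.3 and 17.8 FPKM in RBE, and its split of reads with the close copies RTL8A and RTL8C is uncertain. These copies were the 2 called higher in LM3. RTL8A was at 179 and 136 FPKM in LM3 against 52.8 and 48.9 FPKM in RBE. RTL8C was at 98.9 and 107 FPKM in LM3 against 41.9 and 25.6 FPKM in RBE. RTL6 was at 0.0354 and 0.0634 FPKM in LM3 against 7.26 and 7.24 FPKM in RBE, and PNMA2 at 0.543 and 0.578 FPKM in LM3 against 7.7 and 8.13 FPKM in RBE. LDOC1, RTL8B, RTL6 and PNMA2 were thus higher in RBE.

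IGF2BP1 (ENSG00000159217, chromosome 17, 48997412 to 49055650, plus strand of hg38) was at 12.4 FPKM in both LM3 libraries, and at 0.0444 with si-FENDRR and 0.165 with si-NC in RBE, without overlap (3.60 ± 0.14, limma SE, n = 2 libraries per line, adjusted p = 0.000837). IGF2BP3 (ENSG00000136231, chromosome 7, 23310209 to 23470467, minus strand of hg38) was at 19.2 and 14.7 FPKM in LM3 against 7.36 and 7.7 FPKM in RBE. Its lines did not overlap (1.06 ± 0.16, limma adjusted p = 0.00915), but the call was lost with line as the only term and 1 RBE library left out, at an adjusted p of 0.0758 without si-FENDRR and 0.072 without si-NC. IGF2BP2 (ENSG00000073792, chromosome 3, 185643739 to 185825056, minus strand of hg38), the paralog kept by many adult tissues, was at 15.2 and 20.3 FPKM in LM3 against 14.1 and 12 FPKM in RBE. Its difference of 0.41 ± 0.19 did not pass (limma adjusted p = 0.141).

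Summed over these paralogs, the level was 46.8 and 47.4 FPKM for the LM3 pair and 21.5 and 19.8 for the RBE pair. IGF2BP1 made up 26.5% and 26.2% of it in LM3 but 0.207% and 0.83% in RBE, where IGF2BP2 held 65.5% and 60.4%. In LM3 the leading paralog differed between the libraries, IGF2BP3 with si-FENDRR (41.0%) and IGF2BP2 with si-NC (42.8%).

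**Figure D3:**
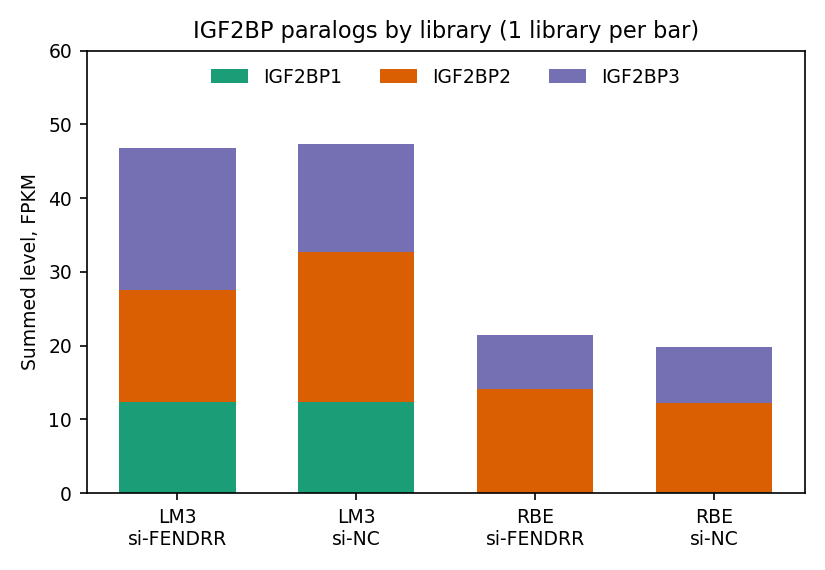
Summed level of the IGF2BP paralogs in FPKM on the vertical axis, 1 bar for each library, with green for IGF2BP1, orange for IGF2BP2 and violet for IGF2BP3. The LM3 bars reach 46.8 and 47.4 and the RBE bars 21.5 and 19.8, where the green block is too thin to see.

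The next list held 22 mRNAs bound by IGF2BP proteins and factors of the m6A mark that these proteins read. All 22 were tested and 6 called, a smaller share than the 58.7% of all tested genes. The calls were 5 higher in LM3 and 1 higher in RBE (median LM3 minus RBE 0.00). MYC, an oncogene whose mRNA IGF2BP1 shields, was at 12.8 and 6.04 FPKM in LM3 against 3.07 and 2.3 FPKM in RBE (1.42 ± 0.21, limma adjusted p = 0.00878). ACTB, the actin mRNA on which IGF2BP1 was described as a zipcode-binding protein, was at 2473 and 2415 FPKM in LM3 against 1520 and 1329 FPKM in RBE. MKI67, a proliferation antigen, was at 13.4 and 10.4 FPKM in LM3 against 4.96 and 6.79 FPKM in RBE. WTAP, a subunit of the m6A writer, was higher in RBE, with 23.1 and 21.6 FPKM in LM3 against 38.4 and 41.1 FPKM in RBE.

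LIN28B (ENSG00000187772, chromosome 6, 104936616 to 105083332, plus strand of hg38) was listed at 0 in 3 libraries and at 0.0512 FPKM in LM3 with si-NC. Its paralog LIN28A was at 0.0248 and a listed 0 FPKM in LM3 against 0.017 and a listed 0 FPKM in RBE. Of 20 genes of the LIN28 and let-7 pathway, 16 were tested and 6 called, beside 58.7% of all tested genes. The calls were 5 higher in LM3 and 1 higher in RBE (median LM3 minus RBE 0.11). Besides MYC, they included the let-7 host transcript MIRLET7BHG, at 4.77 and 3.31 FPKM in LM3 against 1.67 and 1.23 FPKM in RBE (1.03 ± 0.14, limma adjusted p = 0.00717), which overlaps microRNA genes. MIR99AHG, the host of let-7c, was at 2.5 and 3.59 FPKM in LM3 against 0.401 and 0.63 FPKM in RBE. TUT4, the uridylyltransferase that LIN28A recruits to let-7 precursors, was at 10.2 and 9.38 FPKM in LM3 against 5.91 and 4.1 FPKM in RBE. HMGA2, named as a let-7 target after its values were seen, was at 10.7 and 7.75 FPKM in LM3 against 12.2 and 10.6 FPKM in RBE and was not called (limma adjusted p = 0.126).

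Of 18 fetal and progenitor genes, AFP and GPC3 among them, 10 were tested and 6 called, beside 58.7% of all tested genes. The calls were 2 higher in LM3 and 4 higher in RBE (median LM3 minus RBE -0.33). SPINK1, a secreted trypsin inhibitor often raised in liver cancer, was at 139 and 135 FPKM in LM3 against 0.314 and 0.511 FPKM in RBE. The progenitor antigens EPCAM, at 0.318 and 0.236 FPKM in LM3 against 31.2 and 24.9 FPKM in RBE, and CD24, at 0.473 and 0.468 FPKM in LM3 against 95 and 112 FPKM in RBE, had the reverse order.

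**Figure D4:**
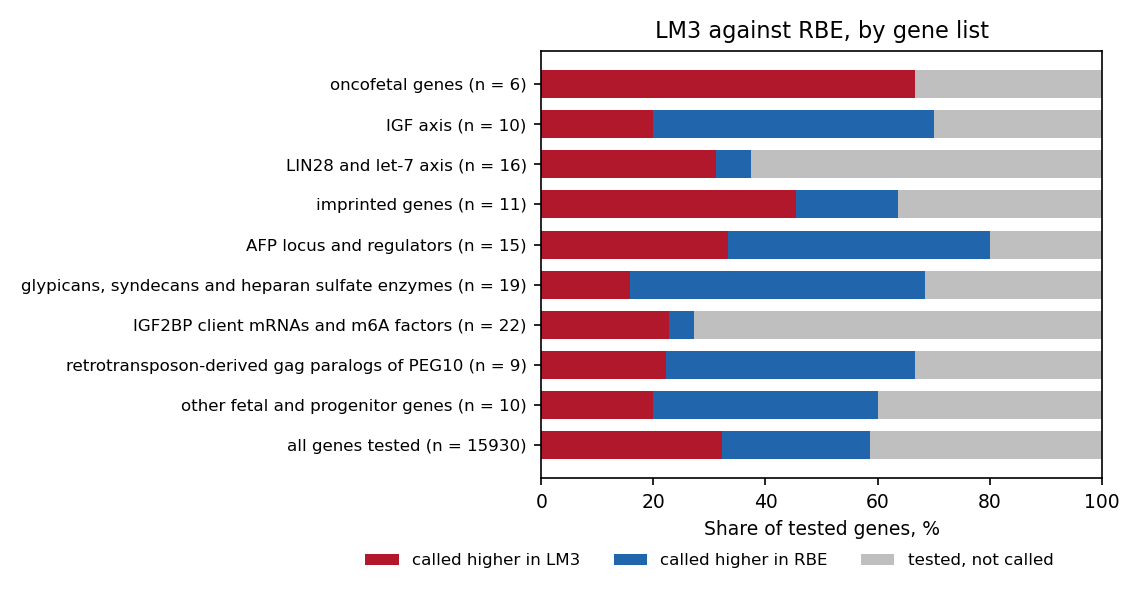
Share of the tested genes of each list, in %, called higher in LM3 (red), called higher in RBE (blue) or not called (grey) by limma at an adjusted p of 0.05, with the number tested beside each name. The oncofetal genes have no blue part, while 10 of 19 heparan sulfate genes are blue and all tested genes divide 32.3% to 26.4%. The oncofetal bar is a description: AFP, H19 and IGF2BP1 passed the filter through LM3 alone. GPC3 and IGF2, listed above 0 in RBE alone, were not tested and are not in it.

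Between the transfections limma called 0 members and 0 of all tested genes (0.0%), while 657 genes (4.12%) had an unadjusted p under 0.05. PEG10 was the only member among these, at 0.67 ± 0.13 for si-FENDRR minus si-NC (limma SE, n = 2 lines, unadjusted p = 0.00656, adjusted p = 0.959). It was also the only tested member higher with si-FENDRR in both lines, as 26.9% of genes were. IGF2BP1 was listed lower in both, as 21.8% were, at -0.08 ± 0.14, and within LM3 its levels were nearly equal (0.999-fold in FPKM + 1). H19, IGF2BP2 and IGF2BP3 went opposite ways in the lines, as 47.1% of genes did. The median was 0.07 over the tested members and 0.01 over all genes.

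SGCE, a sarcoglycan gene imprinted with PEG10, begins 116 bases from it on the opposite strand and was singled out after its values were seen. It was at 42.9 and 34.7 FPKM in LM3 against 25.1 and 19.2 FPKM in RBE. Its si-FENDRR minus si-NC difference was 0.34 ± 0.11 (limma SE, unadjusted p = 0.0401, adjusted p = 0.959), and each si-FENDRR library lay above the si-NC library of its line. Between the lines it was called, unlike PEG10, at 0.79 ± 0.11 (limma adjusted p = 0.00811). Whether the pair differ in this respect was not tested.

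**Figure D5:**
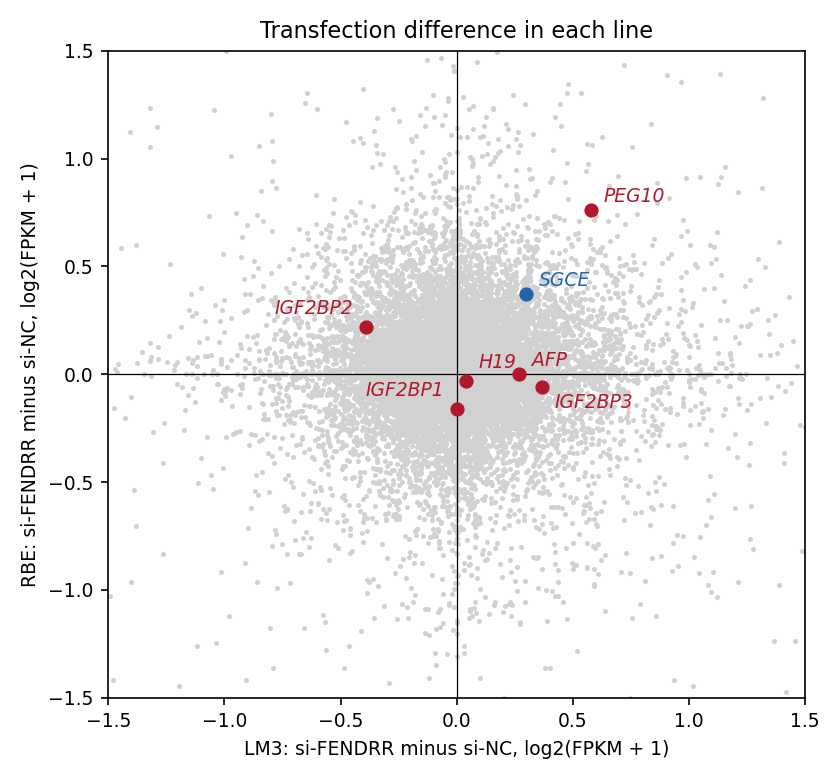
Transfection difference, si-FENDRR minus si-NC in log2(FPKM + 1), in LM3 (horizontal) and RBE (vertical); grey points are tested genes, red points the tested members and the blue point SGCE, and 150 genes lie outside the axes. PEG10, at 0.58 and 0.76, lies above 0 in both lines, and the other members lie nearer the origin.

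Within a line 2 single libraries are compared and no test is possible. No member differed at least 2-fold in FPKM + 1 in LM3, where 2.13% of tested genes did, or in RBE, where 1.75% did. At 1.5-fold, 0 members passed in LM3 (7.97% of genes) and PEG10 passed in RBE (6.27%). In LM3 PEG10 lay just under the rule, at a fold that rounds to 1.5, so no contrast between the lines is read from this. Among related genes, YTHDF3, a reader of m6A, was at 20.4 and 5.8 FPKM in LM3 against 15.8 and 7.76 FPKM in RBE, higher with si-FENDRR in each line (1.30 ± 0.22, limma adjusted p = 0.959). Its paralog YTHDF2 was at 8.54 and 11.2 FPKM in LM3 against 14.5 and 6.11 FPKM in RBE, and the liver factor FOXA2 at 9 and 23.4 FPKM in LM3 against 16.1 and 15.3 FPKM in RBE, each in opposite order in the lines.

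The genes nearest to each tested member were found by Euclidean distance of log2(FPKM + 1) over the 4 libraries. AFP lay nearest to HOXB7 (distance 0.078) and HOXA11-AS1_2, H19 to TDO2 (0.021) and BATF, and IGF2BP1 to NFE4 (0.142) and PLCB1. IGF2BP2 lay nearest to CALCOCO1 (0.0947) and MIGA2, IGF2BP3 to TMED5 (0.141) and EMP2, and PEG10 to DHRS4L2 (0.271) and CHD1. Such closeness is common with 4 libraries: from 31 genes, for PEG10, to 221, for IGF2BP2, lay within 0.5.

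Each library held between 13437 and 13682 genes at 1 FPKM or more. Of 16 hepatocyte markers 8 were under 1 FPKM in every library, APOC3 at 0 in all, and the list summed to 96.4 and 94.2 FPKM in LM3 against 83.5 and 113 in RBE. Of the 8 tested, 3 were called higher in LM3 and 3 in RBE, beside 32.3% and 26.4% of all tested genes. Of 14 cholangiocyte markers 9 of 12 tested were called, 8 of them higher in RBE, such as KRT7 at 7.21 and 6.02 FPKM in LM3 against 429 and 391 FPKM in RBE. SPP1 was called higher in LM3, at 1118 and 909 FPKM against 515 and 504 FPKM in RBE. The list summed to 1680 and 1318 in LM3, most of it SPP1, and to 1857 and 1807 in RBE. CLDN4 of this list was at 179 and 0.515 FPKM in LM3 against 50.8 and 66.7 FPKM in RBE. Of 10 mesenchymal markers 7 were tested and all 7 called, 3 higher in LM3 and 4 in RBE. The list sums, 963 to 973 in LM3 and 969 to 1049 in RBE, were close but came mostly from different genes. FN1 was at 939 and 932 FPKM in LM3 against 35.2 and 37.2 FPKM in RBE. VIM was at 3.45 and 3.33 FPKM in LM3 against 820 and 897 FPKM in RBE. Of 8 blood and endothelial markers CD3E and HBB were at 0 in all libraries, and the sums, 63.2 and 66.2 against 15.2 and 14.7, were mostly CD68. The part of these markers in the line differences was not tested.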

How the data were processed

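The deposited values are FPKM per gene, per the file headers, for 4 mRNA libraries. The submitters' processing notes name FastQC, HISAT2 and hg38; the FPKM program and annotation were not given in the sources used here. Whole reads could not be recovered (10.9% to 16.0% of low values were within 0.02 of whole multiples of a step of 43.2 to 49.8 FPKM times bp), so depth is unknown and no intervals are given. A value of 0 may be a failed estimate. Of the identifiers, 57836 matched GENCODE release 29, used for gene types and overlaps.

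FPKM entered limma 3.58.1 (R 4.3.3) as log2(FPKM + 1), so that differences of weakly expressed genes come out too small, for genes at 1 or more in any library, with a trended prior, line and transfection terms and Benjamini-Hochberg adjustment. The design's count test was not needed. The test was tried on simulated data with noise of each gene's fitted variance and, after that gave too many false calls, also with variances drawn from limma's own prior. The share of false calls was above the nominal 0.05 in most of these trials, less so in the second kind, and the test was kept. Adjusted p-values, which rest on 1 residual degree of freedom, may therefore be too small.

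Members and lists were chosen with earlier results of these data known. The text names all members, up to 4 called genes per list with the largest line difference, genes past 2-fold within a line, the 2 nearest profiles and genomic neighbours; exceptions are marked, marker lists are given by example, and some items the rule takes are not reported here. TUT4 and 3 other renamed genes were matched by identifier. Alternatives changed the pseudocount, filter, scaling, prior, terms and libraries; the second let-7 transcript rule and the strand for TATAAA were chosen after the data were seen.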

Additional observations from a re-analysis of the deposited data

Results flagged for a closer look

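In some genes the si-FENDRR minus si-NC difference had opposite signs in the lines, as in 47.1% of all tested genes; with 1 library for each line and transfection this was not tested. Taking the LM3 difference minus the RBE difference, in log2(FPKM + 1), the value was -0.61 for IGF2BP2, 0.42 for IGF2BP3 and 0.07 for H19. It was -1.36 for FOXA2 and -1.48 for YTHDF2, which were looked at because they passed 2-fold within a line. They are not the only such genes. The marker CLDN4 was at 6.89 in LM3 and -0.39 in RBE. The noncoding gene MIRLET7DHG, at 1.4 FPKM or less in every library, was at 1.26 in LM3 and -0.32 in RBE.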

How the results depend on the processing

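The line differences of AFP, H19 and IGF2BP1, which passed the filter through LM3 alone, depend in size on the pseudocount (AFP 1.5 with 5 and 6.53 with 0.1). The number of members called was 4 under the scalings, pseudocounts, prior and single-term model, 3 to 4 with a library left out (IGF2BP3 lost, at 1.03 and 1.09), and 6 of 10 without the filter, where GPC3 and IGF2 entered through RBE alone and 24.3% of all genes were called. Over all genes the line calls were 9348 with both terms, 9643 with line alone, and 5615 to 7009 with line alone and a library left out. No member was called between transfections under any alternative, and PEG10 stayed positive, 0.47 to 0.84. The 1.5-fold rule gave 1 member within RBE in place of 0, PEG10. Transfections were compared within lines through the line term; the labels give no replicate numbers for a further block. Without counts, levels near 0 have no detection limit.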
